A study of Mus musculus with 8 samples.

Results

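The genes described here are Dusp1, Dusp2, Dusp6, Gem and Rgs19, 5 of the 8251 genes with a probe set of their own, whose products damp signals that antigen or chemokines start in a B cell. They were measured by all probe sets of the array that carry one of these symbols alone, 8 probe sets of 12422, of which 6 were bright enough to be tested. The genes were chosen by their measured responses to antigen on these same arrays and by the difference of those responses between the receptors. Their antigen responses, the difference of these responses between receptors and the comparison of stimulated cells are therefore given as values with errors and no test. The comparison of resting cells was tested, but its arrays also enter the difference of responses that chose the genes, so its values are not independent of that choice.

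RNA came from sorted follicular B cells of mice whose antigen receptor binds hen egg lysozyme (HEL), and was measured on 8 single-colour oligonucleotide arrays in 4 groups of 2. The groups were IgMG cells with HEL (8 and 6 mice pooled per array), IgMG cells without stimulation (5 and 6 mice), IgM cells with HEL (4 and 2 mice) and IgM cells without stimulation (2 and 4 mice). IgMG is a chimera, an IgM receptor that carries the spacer outside the cell, the membrane span and the tail inside the cell of IgG1. All 4 groups share the HEL-binding receptor; for strain, age and sex of the mice, the way the receptors were introduced, and the dose and length of stimulation, nothing is stated in the labels. Each array pooled the cells of 1 to 3 sorts, so that receptor and number of mice pooled cannot be told apart.

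Antigen binding to a B cell receptor starts a kinase chain through Ras to the MAP kinases ERK, JNK and p38, together with a rise in calcium. Dual-specificity phosphatases switch MAP kinases off by removing phosphate from both the threonine and the tyrosine of the activation loop. Several of them are themselves transcribed when MAP kinases are active, which closes a negative feedback loop. Gem is a small GTPase of the RGK group that restrains calcium channels, and RGS proteins shorten the signal of G protein-coupled receptors, such as chemokine receptors, by speeding up GTP hydrolysis on the G protein.

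The promoters of the phosphatase genes are shown first because 2 of these genes, Dusp1 and Dusp2, were higher with HEL and the other, Dusp6, was lower. Each is the 250 bases before the annotated start of transcription, from RefSeq on GRCm38.p6, printed 5′ to 3′ on the gene's strand. They lie at chr17:26508473-26508722 on the minus strand for Dusp1, chr2:127335909-127336158 on the plus strand for Dusp2 and chr10:99262981-99263230 on the plus strand for Dusp6.
Dusp1: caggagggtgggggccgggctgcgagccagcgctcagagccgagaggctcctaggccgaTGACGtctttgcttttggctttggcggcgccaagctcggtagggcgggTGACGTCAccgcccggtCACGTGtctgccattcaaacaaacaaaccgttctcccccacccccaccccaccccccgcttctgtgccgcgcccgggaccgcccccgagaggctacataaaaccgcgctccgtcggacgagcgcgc
Dusp2: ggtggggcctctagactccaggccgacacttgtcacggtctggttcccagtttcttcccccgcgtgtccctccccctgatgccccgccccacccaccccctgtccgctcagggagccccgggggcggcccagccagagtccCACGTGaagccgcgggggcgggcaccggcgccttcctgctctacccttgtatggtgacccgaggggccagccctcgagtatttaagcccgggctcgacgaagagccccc
Dusp6: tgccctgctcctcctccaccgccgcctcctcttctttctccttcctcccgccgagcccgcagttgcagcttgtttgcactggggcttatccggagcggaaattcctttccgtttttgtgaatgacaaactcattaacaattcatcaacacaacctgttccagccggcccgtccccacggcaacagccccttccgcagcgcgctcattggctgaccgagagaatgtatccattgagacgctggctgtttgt

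Capitals mark the matches to a set of motifs searched on both strands. The cyclic AMP response element TGACGTCA lay 143 to 136 bases before the start of Dusp1 and was present in 1.55% of 32851 promoters of the same length. Its shorter core TGACG, which also lies inside the full element, occurred once more in Dusp1, 191 to 187 bases before the start, and was found in 17.8% of all promoters. The E-box CACGTG was matched in Dusp1 and in Dusp2, against 6.02% of all promoters. The Dusp6 window held no match to these, nor did any of the 3 windows to the AP-1 site TGANTCA (6.75% of all promoters), the EGR site GCGTGGGCG (0.536%), the ETS site CCGGAAG (6.91%), the FoxO site TGTTTAC (3.17%), the CArG box of SRF (1.47%) or the NF-kB site (7.25%). Such matches describe letters in a window and not binding. Gem lies on chromosome 4 and Rgs19, with 3 annotated starts, on chromosome 2.

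The deposited values are MAS5 signals on a linear scale, and differences on the log2 scale were taken after adding 16 to each signal, so that those of dim probe sets come out too small. B cell identity was high on every array: the summed signal of 11 B cell markers lay between 25680 and 34912, and that of the 11 T cell markers on the array (of 12 listed) between 151 and 356. Cd3e, which defines T cells, lay between 6.7 and 11.6, while Cd5, which B cells can also express, had 51 to 118.5 with HEL, against 5.6 to 22.8 without. The erythroid sum over 8 markers (of 13 listed) was 13320 to 21495 on the 8 arrays, led by the globin gene Hba-a1 at 9595 to 16616. In bulk RNA such as this, fewer cells of a type and less RNA per cell cannot be told apart. By their sums, myeloid and NK cell markers set 1 library apart, and the Gapdh 5′/3′ signal ratio set apart another. The second unstimulated IgMG array had a summed signal of 21503 over the 20 myeloid markers on the array (of 22 listed), against 1755 to 7603 on the others. It had 3799 over 9 NK cell markers (of 12 listed), against 393 to 1064 on the others. Of the myeloid markers, S100a8, S100a9, Camp and Ngp were also highest on it. Cd14, Csf1r, C1qa and C1qb were highest on the first IgMG array with HEL. That array had 1005.2 for Cd14, against 72 to 211.7 on the others, and 539.9 for Csf1r, against 475 on the second unstimulated IgMG array. The second IgM array with HEL had a Gapdh 5′/3′ signal ratio of 0.755, against 0.140 to 0.395 on the others. Its Gapdh signal was thus the least skewed to the 3′ end, and the other arrays were the more skewed ones.

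All 6 tested probe sets had groups that did not overlap in the HEL response of IgMG cells, 3 higher and 3 lower, and the same held in IgM cells. Over all 7453 tested probe sets 53.1% were without overlap in IgMG cells (23.7% higher and 29.4% lower) and 58.2% in IgM cells (27.6% higher and 30.6% lower). By limma at an adjusted p of 0.05, 5.39% passed in IgMG cells (3.10% higher and 2.29% lower) and 14.0% in IgM cells (6.70% higher and 7.27% lower). Since these responses chose the genes, nothing is read from that count of 6. Dusp1, Dusp2 and Gem were the higher ones with HEL, and Dusp6 and both tested Rgs19 probe sets the lower ones. The 2 remaining probe sets, the second for Dusp6 and the third for Rgs19, were dim, with signals of 3.0 to 10 and 2.2 to 9.8 on the 8 arrays, and carry no measurable difference.

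**Figure D1:**
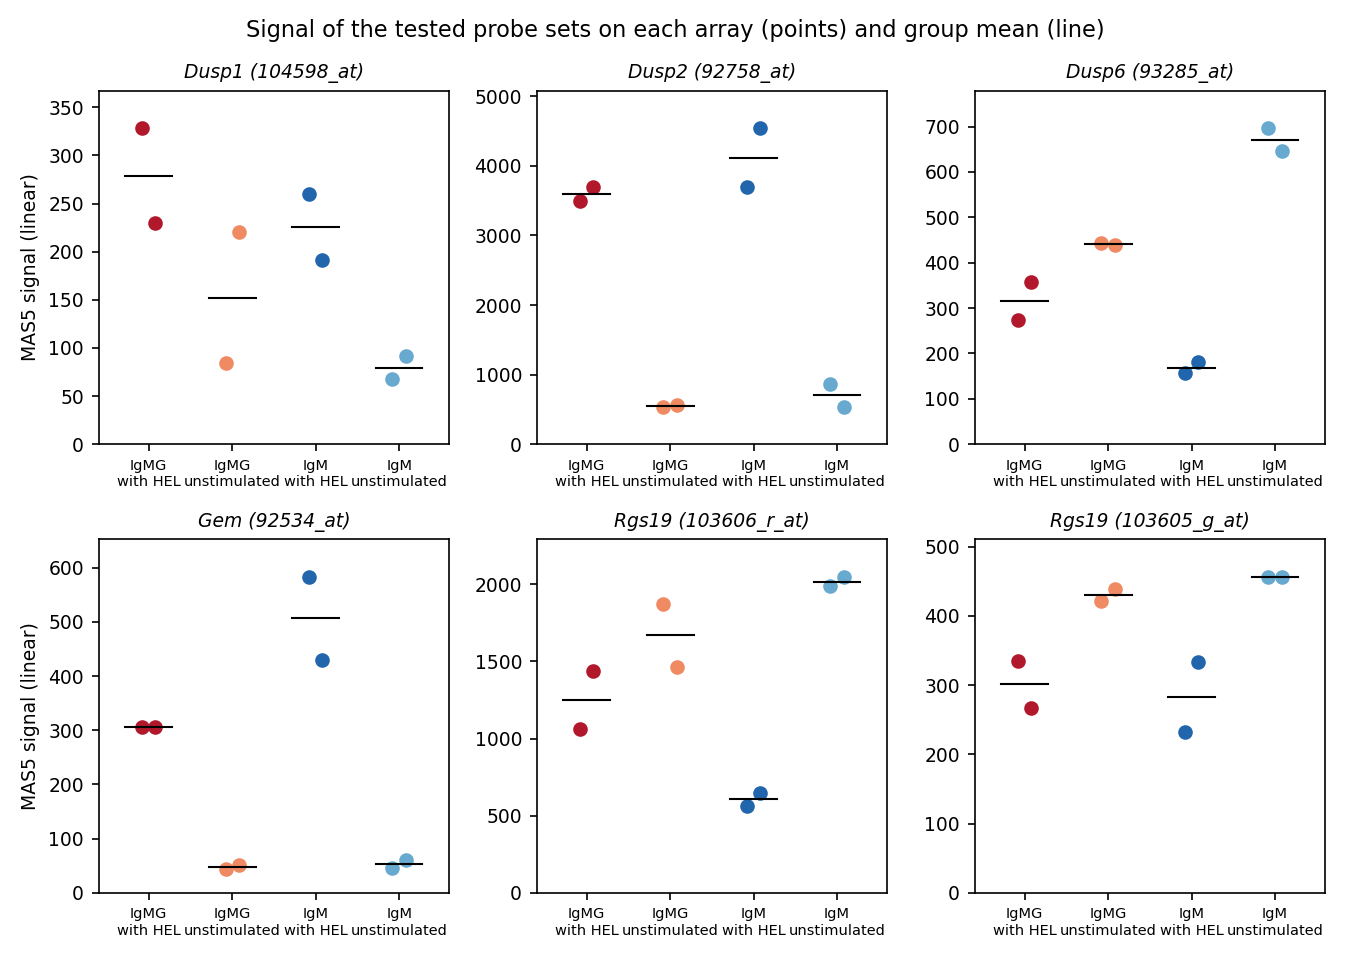
Linear MAS5 signal (vertical axes, from 0) of the 6 tested probe sets on each of the 8 arrays (points, 2 per group) with the group mean (line). Dusp2 and Gem are high in both groups with HEL, Dusp6 and Rgs19 103606_r_at are lowest in IgM cells with HEL, and Dusp1 has 1 unstimulated IgMG array, at 220.4, near the stimulated ones.

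Dusp2 encodes a nuclear phosphatase of lymphocytes, known as PAC-1, and had the highest response of the phosphatases. Its signal was 3499.2 and 3699.4 in IgMG cells with HEL, against 532.1 and 568.4 in unstimulated IgMG cells. IgM cells had 3697.5 and 4538.2 with HEL, against 865.2 and 536.6 without. Both pairs of groups were far apart, and the stimulated arrays of the 2 receptors overlapped. The ratio of mean signals was 6.54 in IgMG and 5.88 in IgM cells, and the log2 differences were 2.67 ± 0.22 and 2.56 ± 0.22 (SE of the limma fit, n = 2 arrays per group). The response of IgMG minus that of IgM cells was 0.12 ± 0.31, with a 95% interval from -0.58 to 0.81, so that a difference in either direction of up to about that size was not resolved. It was 0.51 with the Gapdh 5′/3′ ratio in the model and -0.22 without the first unstimulated IgM array.

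Gem, the RGK GTPase, was measured at 306.4 on each of the IgMG arrays with HEL, against 43.2 and 51.2 on the unstimulated IgMG arrays. In IgM cells its signal was 582.9 and 430.4 with HEL, against 46.6 and 60.6 without. Unstimulated levels of the 2 receptors overlapped, while both IgM arrays with HEL lay above both IgMG arrays with HEL. The ratio of mean signals was 6.49 in IgMG and 9.45 in IgM cells, with log2 differences of 2.35 ± 0.21 and 2.90 ± 0.21 (SE). The response of IgMG minus that of IgM cells was -0.55 ± 0.30 (SE). It was -0.33 without the first and -0.76 without the second IgM array with HEL, and -0.83 with the Gapdh 5′/3′ ratio in the model.

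Dusp1, known as MKP-1, is a nuclear phosphatase that acts on p38, JNK and ERK and is transcribed within minutes of many stimuli. Its signal was 328.1 and 229.7 in IgMG cells with HEL, against 84.1 and 220.4 in unstimulated IgMG cells. IgM cells had 260.0 and 191.5 with HEL, against 68.2 and 91.2 without. The stimulated and the unstimulated groups of IgM cells were well separated, while in IgMG cells the second unstimulated array came close to the lower stimulated one. The log2 differences were 0.92 ± 0.38 in IgMG and 1.33 ± 0.38 in IgM cells (SE), with the largest standard errors of the tested probe sets.

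The Dusp1 values in IgMG cells turned on that second unstimulated array, the one with the highest sums of myeloid and of NK cell markers. The myeloid sum was 6181 and 7603 in IgMG cells with HEL, 2347 and 21503 in unstimulated IgMG cells, 5585 and 1755 in IgM cells with HEL and 6288 and 3870 in unstimulated IgM cells. Without it the response of IgMG cells was 1.54, and without the first unstimulated IgMG array it was 0.30. The response of IgMG minus that of IgM cells was -0.41 ± 0.53 (SE) with all arrays. With the second unstimulated IgMG array left out it was 0.21 and with the first left out -1.03, so that its sign turned on 1 library. Without both arrays that stood apart the responses were 1.54 in IgMG and 1.54 in IgM cells. The first IgMG array with HEL, with the highest Dusp1 signal, also had the highest Cd14, Csf1r, C1qa and C1qb. Whether the other cell types contributed to the Dusp1 signal was not tested.

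**Figure D2:**
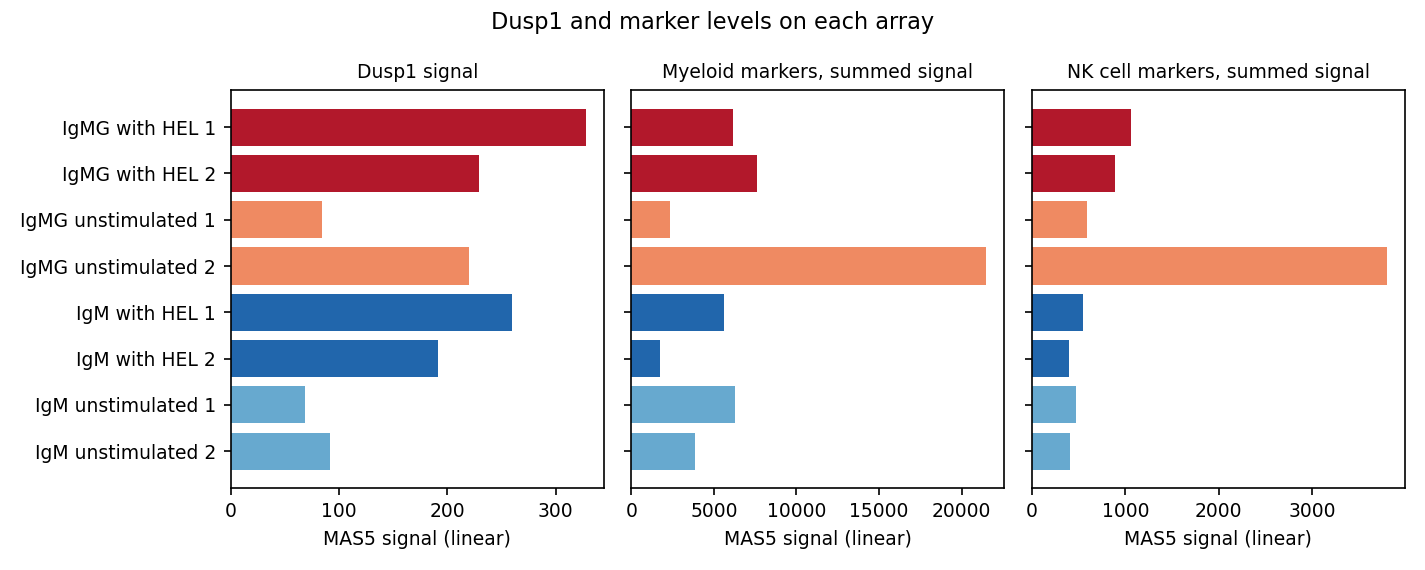
Linear MAS5 signal of Dusp1 (left), the summed signal of the myeloid markers (middle) and of the NK cell markers (right) on each of the 8 arrays, with bars from 0 coloured by group. The second unstimulated IgMG array has the highest marker sums, 21503 and 3799, and a Dusp1 signal of 220.4, against 84.1 on the other array of its group.

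Dusp6, known as MKP-3, is a cytoplasmic phosphatase specific for ERK, and it went opposite to the other phosphatases. Its signal was 274.6 and 356.8 in IgMG cells with HEL, against 443.5 and 439.4 in unstimulated IgMG cells. The values in IgM cells were 156.1 and 180.7 with HEL, against 695.9 and 645.4 without. The 4 groups did not overlap: IgM cells held both the highest level, at rest, and the lowest, with HEL, and IgMG cells lay between. The mean signal with HEL was 0.715 of that without in IgMG cells and 0.251 in IgM cells. The log2 differences were -0.47 ± 0.18 in IgMG and -1.90 ± 0.18 in IgM cells (SE). The IgMG value was -0.30 without the first and -0.65 without the second IgMG array with HEL.

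Rgs19, also known as GAIP, is a GTPase-activating protein for inhibitory G protein alpha subunits. Its brightest probe set, 103606_r_at, had a signal of 1060.0 and 1434.8 in IgMG cells with HEL, against 1874.3 and 1465.3 in unstimulated IgMG cells. In IgM cells it was 564.1 and 647.4 with HEL, against 1986.8 and 2047.6 without. Both IgM arrays with HEL were below every other array, and the higher IgMG array with HEL came close to the lower unstimulated one. The log2 differences were -0.42 ± 0.19 in IgMG and -1.71 ± 0.19 in IgM cells (SE). The IgMG value had a 95% interval from -0.85 to 0.01. It was -0.21 without the first and -0.64 without the second IgMG array with HEL, and -0.25 without the first unstimulated IgMG array.

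The other tested Rgs19 probe set, 103605_g_at, gave a different picture of the receptors. Its signal was 334.9 and 267.4 in IgMG cells with HEL, against 421.3 and 438.3 in unstimulated IgMG cells. In IgM cells it was 232.8 and 333.9 with HEL, against 456.3 and 456.2 without. It too was lower with HEL in both kinds of cell, by log2 differences of -0.50 ± 0.20 in IgMG and -0.68 ± 0.20 in IgM cells (SE), but its stimulated groups overlapped. The IgMG value was -0.25 with the Gapdh 5′/3′ ratio in the model, and the IgM value was -0.43 without the first IgM array with HEL. On this array design the _r suffix marks a set for which some probe selection rules were dropped. The _g suffix marks one whose probes may be shared within a group of transcripts. The remaining Rgs19 set, 103604_at, carries neither suffix and was dim, at 2.2 to 9.8, so every Rgs19 value here rests on the other sets. Which of the sets follows Rgs19 better was not tested.

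**Figure D3:**
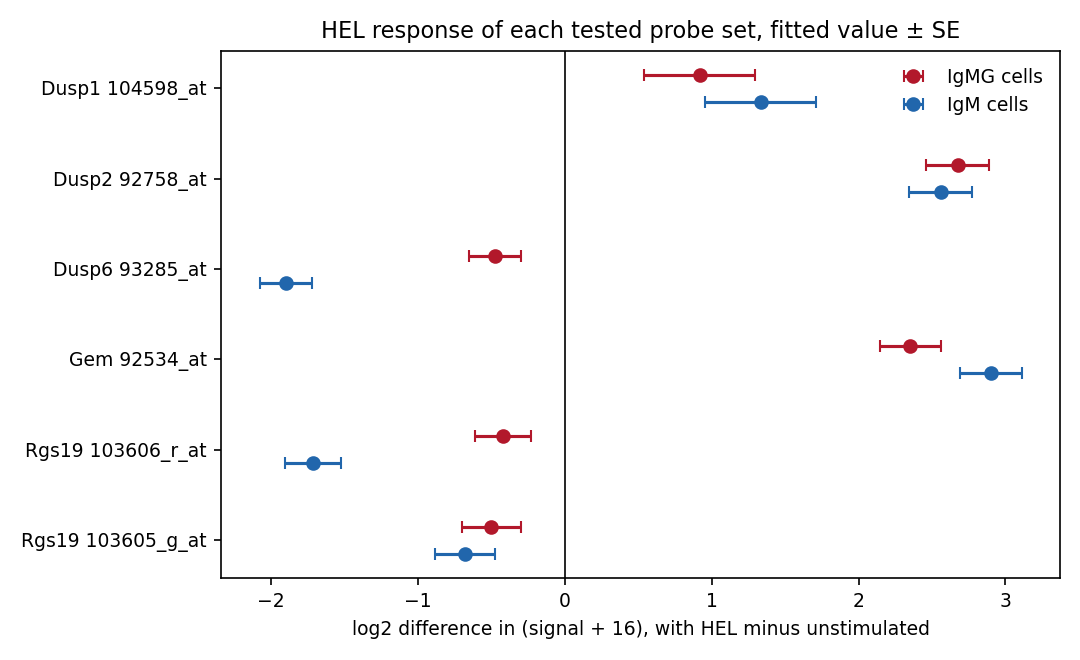
Fitted log2 difference in (signal + 16), with HEL minus unstimulated (horizontal axis), for the 6 tested probe sets in IgMG cells (red) and IgM cells (blue), with standard errors. Dusp6 and Rgs19 103606_r_at lie at -0.47 and -0.42 in IgMG cells, against -1.90 and -1.71 in IgM cells, while the values of Dusp2 lie within 1 standard error of each other.

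The difference of the responses, which the design of the study asks about, was positive for Dusp6 and for the brightest Rgs19 probe set, whose decrease with HEL was smaller in IgMG cells. It was 1.42 ± 0.25 (SE) for Dusp6 and ranged from 1.24 to 1.60 when each array was left out in turn. It was 1.29 ± 0.27 (SE) for Rgs19 103606_r_at, with a range from 1.08 to 1.51. For Rgs19 103605_g_at it was 0.18 ± 0.29 (SE), with a range from -0.07 to 0.43, and with the mean of both probe sets the difference for Rgs19 was 0.74. Over all 7453 tested probe sets 0% passed an adjusted p of 0.05 by limma in this comparison, and 10.1% had an unadjusted p under 0.05.

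The Gapdh 5′/3′ ratios of the IgMG arrays with HEL, 0.221 and 0.140, lay below those of the IgM arrays with HEL, 0.328 and 0.755. With this ratio in the model the difference of responses was 1.45 for Dusp6 and 1.11 for Rgs19 103606_r_at, close to the values without it. It was 0.64 for Rgs19 103605_g_at, more than 3 times the value without it. Without both arrays that stood apart these differences were 1.51, 1.21 and 0.45.

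**Figure D4:**
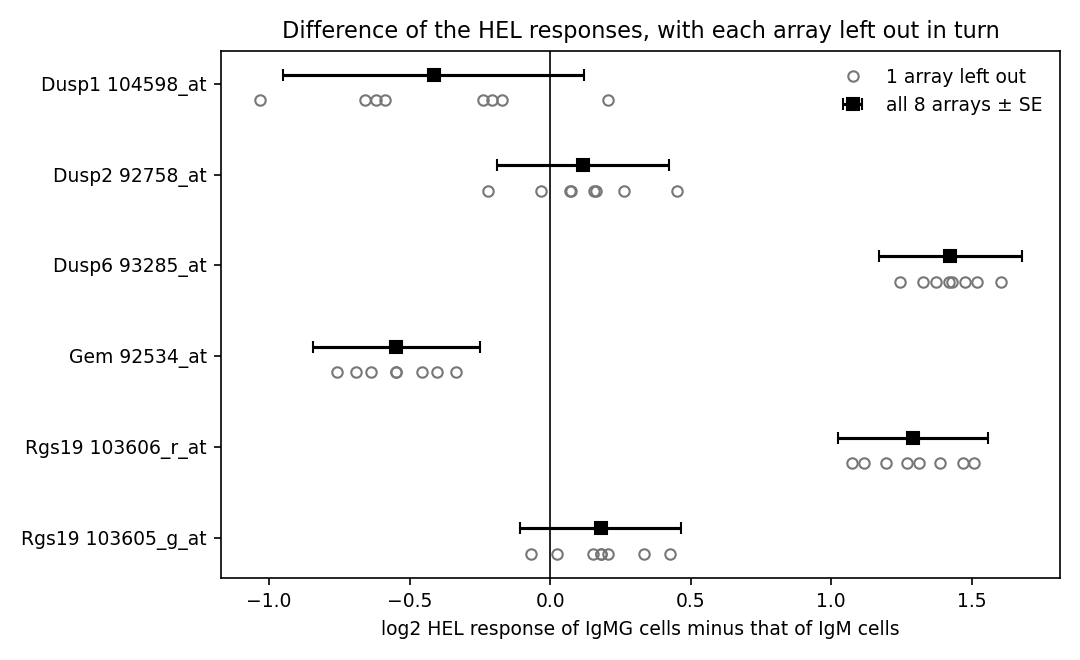
Log2 HEL response of IgMG cells minus that of IgM cells (horizontal axis) for the 6 tested probe sets, fitted on all 8 arrays (black squares with standard errors) and with each array left out in turn (grey circles, 8 per probe set). All circles of Dusp6 and Rgs19 103606_r_at lie between 1.08 and 1.60, and those of Dusp1 spread from -1.03 to 0.21.

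Set side by side with HEL, IgMG and IgM cells had groups without overlap at 3 of the 6 tested probe sets, 2 higher in IgMG cells and 1 lower, against 48.3% of all tested probe sets (23.8% higher and 24.5% lower). By limma 1 of all 7453 passed, as lower in IgMG cells, which is 0.0134%. Dusp6 averaged 316 ± 58.1 in IgMG and 168 ± 17.4 in IgM cells (SD, n = 2 each), or 0.84 ± 0.18 (SE) on the log2 scale. Rgs19 103606_r_at averaged 1247 ± 265 in IgMG and 606 ± 58.9 in IgM cells (SD, n = 2 each), or 1.01 ± 0.19 (SE) on the log2 scale, and 0.55 with the mean of its probe sets. Gem was the one lower in IgMG cells, with a log2 difference of -0.68 ± 0.21 (SE). Dusp1 (0.28 ± 0.38), Dusp2 (-0.19 ± 0.22) and Rgs19 103605_g_at (0.10 ± 0.20) had overlapping groups. These values use the same stimulated arrays as the difference of responses and are not separate evidence.

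Before antigen, 0 of the 6 tested probe sets passed the threshold between IgMG and IgM cells by limma, against 0% of all 7453, and 1 had an unadjusted p under 0.05, against 4.62% of all. That one was Dusp6, at 441 ± 2.90 in unstimulated IgMG and 671 ± 35.7 in unstimulated IgM cells (SD, n = 2 each). Its log2 difference was -0.58 ± 0.18 (SE), with a 95% interval from -0.99 to -0.18 and an adjusted p = 0.965 in limma. Both IgMG arrays lay below both IgM arrays, as they did at both tested Rgs19 probe sets. That makes 3 of the 6 probe sets, against 15.1% of all tested ones. Another 16.5% had both IgMG arrays above, 31.6% in all. Since the resting arrays also entered the choice of the genes, nothing is read from that count of 3. The difference stayed between -0.64 and -0.53 with each array left out in turn, and the lowest adjusted p over all alternatives was 0.458. Part of the difference of the Dusp6 responses lay in the resting arrays, since -0.58 at rest and 0.84 with HEL make up the 1.42.

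None of the other members passed at rest. Dusp1 had a log2 difference of 0.70 ± 0.38 (SE), with an adjusted p = 0.995 in limma, and it was 0.08 without the second unstimulated IgMG array and 1.32 without the first. Rgs19 103606_r_at had -0.28 ± 0.19, Dusp2 -0.30 ± 0.22, Gem -0.13 ± 0.21 and Rgs19 103605_g_at -0.08 ± 0.20 (SE), each with an adjusted p = 0.995 in limma. Both Rgs19 probe sets were lower on both IgMG than on both IgM arrays, and 103606_r_at had -0.11 with the second unstimulated IgMG array left out and -0.46 with the first left out. With 2 arrays against 2 the smallest p of an exact permutation test is 0.333, so no gene could pass by that test. That floor does not hold for limma, which gave the p-values here and also estimates the spread across probe sets.

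For each gene the 3 other genes with the most similar pattern were taken from 933 that varied at least 2-fold between group means, by Pearson's r over the 8 arrays, which share their groups. Dusp6 and Rgs19 103606_r_at were among each other's nearest, at r = 0.97. Both genes were chosen by their responses on these same arrays, so their likeness is not separate evidence of a shared control. Dusp6 also had Klf7 and 2610524H06Rik near it, at 0.98 and 0.97, and Rgs19 had Trim21 and Tex261, both at 0.97. The nearest to Gem were Myc, a driver of cell growth, at r = 0.996, and Etf1, a translation release factor, and Macir, both at 0.995. For Dusp2 they were the transcription factor Irf8 (0.99), Atp6v1d (0.99) and the cyclic AMP response gene Crem (0.98).

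For Dusp1 they were the immediate-early factor Fos (0.95), Cebpb (0.94) and the leukocyte receptor gene Lilr4b (0.94). Lilr4b had a signal of 292.9 and 266.1 in IgMG cells with HEL, against 54.8 and 313.2 in unstimulated IgMG cells. In IgM cells it had 283.2 and 279.6 with HEL, against 60.2 and 40 without. It was high on all 4 arrays with HEL, whose myeloid sums were 1755 to 7603, and on the second unstimulated IgMG array. It was low on the unstimulated IgM arrays, with sums of 6288 and 3870, and on the first unstimulated IgMG array, with 2347. Single myeloid markers did not all follow that sum. Cybb was 236.7 and 353.8 in IgM cells with HEL, against 98.6 and 82.2 without. In the same cells S100a8 was 1349.6 and 215.3 with HEL, against 1568 and 963 without. In IgMG cells Cybb was 127 and 66.5 with HEL, against 58.1 and 417.2 without. Whether other cell types contributed to the Lilr4b signal was not tested.

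The wider pathway was taken from 7 lists of MAP kinase, RGK, RGS and G protein genes, leaving out the 5 genes. Of 189 listed genes 119 had a probe set and 88 were tested. By limma at an adjusted p under 0.05, 6 rose and 6 fell with HEL in IgMG cells, 13.6% of the 88, against 6.25% of all 5603 tested genes (3.48% higher and 2.77% lower). In IgM cells 11 rose and 6 fell, 19.3%, against 15.2% of all tested genes (6.85% higher and 8.39% lower). The median log2 difference of the lists was -0.11 in IgMG and -0.0012 in IgM cells, and that of all tested genes was -0.07 and -0.04. Of the called genes 7 were called in both kinds of cell, 58.3% of the IgMG and 41.2% of the IgM calls, 4 as higher, 3 as lower and 0 in opposite directions.

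Counts for IgMG cells depended on single libraries: in place of 12 calls 4 were made when the first IgMG array with HEL was left out, and 3 when the second was. The 17 calls in IgM cells became 11 without the second IgM array with HEL and 10 without the first unstimulated IgM array. Without both arrays that stood apart 14 were called in IgMG and 14 in IgM cells.

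Of the other dual-specificity phosphatases 8 of 33 listed were tested. In IgMG cells 0 passed by limma, 1 had an unadjusted p under 0.05 (22.3% of all tested probe sets did), and Dusp11 came nearest with a log2 difference of 0.54 ± 0.19 and an adjusted p = 0.132. In IgM cells 2 rose and 1 fell. Dusp16, a phosphatase of JNK and p38, rose by 1.18 ± 0.24 (adjusted p = 0.0143 in limma), against 0.35 ± 0.24 in IgMG cells. Dusp11, which acts on RNA ends, rose by 0.81 ± 0.19 (adjusted p = 0.0227 in limma), and Ptp4a2, a membrane-bound phosphatase, fell by 0.87 ± 0.19 in log2 terms (adjusted p = 0.0182 in limma). Of 12 tested Sprouty, Spred and Ras-GAP genes, which restrain Ras, 1 fell in IgMG cells. That was Rasa4, a calcium-dependent Ras-GAP, with a log2 difference of -0.92 ± 0.22 (adjusted p = 0.0478 in limma). In IgM cells 0 passed by limma while 5 had an unadjusted p under 0.05 (28.6% of all tested probe sets did), with Rasal1 nearest at 0.91 ± 0.28 (adjusted p = 0.0604 in limma).

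Of 31 tested genes of the Ras and MAP kinase cascade, 2 rose and 2 fell in IgMG cells, and 5 rose and 2 fell in IgM cells. The atypical MAP kinase Mapk6 rose in both, by 1.89 ± 0.18 in IgMG cells and by 2.68 ± 0.18 in IgM cells, and Mapk14, the p38 alpha kinase and a substrate of Dusp1, had log2 differences of -1.23 ± 0.24 and -1.55 ± 0.24, all past the threshold in limma. Map3k1, a kinase above JNK, rose by 0.75 ± 0.17 in IgMG cells and Map2k5 fell there, with a log2 difference of -0.97 ± 0.21. In IgM cells the calls were also Mapk7 (1.33 ± 0.19), Map3k8 (1.01 ± 0.18), a kinase above ERK, Mapk8 (0.75 ± 0.19), the JNK1 gene, Rap1b (0.78 ± 0.21) and the Ras activator Sos2 (-1.05 ± 0.29). Sos2 was the seventh call of its list and is named here to complete it. Mapk7 had a signal of 79.3 and 88.9 in IgMG cells with HEL, against 183.5 and 206.9 in IgM cells with HEL. Its difference of responses was -1.26 ± 0.26, with an adjusted p = 0.414 in limma, and 0 of the 88 genes passed in that comparison, where 15 had an unadjusted p under 0.05 (10.1% of all tested probe sets did).

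Of 8 tested RGK GTPases and partners, Rrad, a relative of Gem, rose in both. Its signal was 778.8 and 832.9 in IgMG cells with HEL, against 198.9 and 162.9 in unstimulated IgMG cells. In IgM cells it was 1002.4 and 1175.3 with HEL, against 133.8 and 182.0 without. The log2 differences were 2.07 ± 0.19 (adjusted p = 0.000797) in IgMG and 2.68 ± 0.19 (adjusted p = 0.000108) in IgM cells by limma. Ezr, which links the membrane to actin, rose by 0.86 ± 0.14 in IgMG cells (adjusted p = 0.0126 in limma).

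Of 6 tested RGS genes, 1 rose and 1 fell in each kind of cell, and they were the same 2 genes. Rgs2, which acts on Gq proteins, rose in both, by 1.84 ± 0.31 in IgMG cells and by 2.30 ± 0.31 in IgM cells (adjusted p = 0.0150 and 0.00239 in limma). Rgs14, which acts on inhibitory G proteins as Rgs19 does, had a signal of 388.2 and 363.4 in IgMG cells with HEL, against 1400.6 and 1146.4 in unstimulated IgMG cells. In IgM cells it was 295.9 and 152.7 with HEL, against 1094.6 and 1114.6 without. The log2 differences were -1.71 ± 0.26 in IgMG and -2.29 ± 0.26 in IgM cells (adjusted p = 0.00908 and 0.00104 in limma), and their difference of 0.58 ± 0.37 had an adjusted p = 0.590 in limma.

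Of 14 tested G protein subunit genes, 1 fell in each, Gnb2 in IgMG cells (-0.80 ± 0.18, adjusted p = 0.0402 in limma) and Gng10 in IgM cells (-1.04 ± 0.21, adjusted p = 0.0118 in limma). Of 9 tested receptors that signal through inhibitory G proteins, 1 rose and 1 fell in IgMG cells and 2 rose and 1 fell in IgM cells. The chemokine receptor gene Cxcr4 rose in both, by 1.51 ± 0.19 in IgMG cells and by 1.72 ± 0.19 in IgM cells, and the lipid receptor gene S1pr4 had log2 differences of -1.75 ± 0.27 and -2.14 ± 0.27, all past the threshold in limma. Ccr7, the receptor that leads cells to the T cell zone, rose by 1.92 ± 0.27 in IgM cells (adjusted p = 0.00296 in limma). In IgMG cells Ccr7 had 0.80 ± 0.27 (adjusted p = 0.13 in limma). The difference of its responses was -1.12 ± 0.39 (adjusted p = 0.439 in limma).

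**Figure D5:**
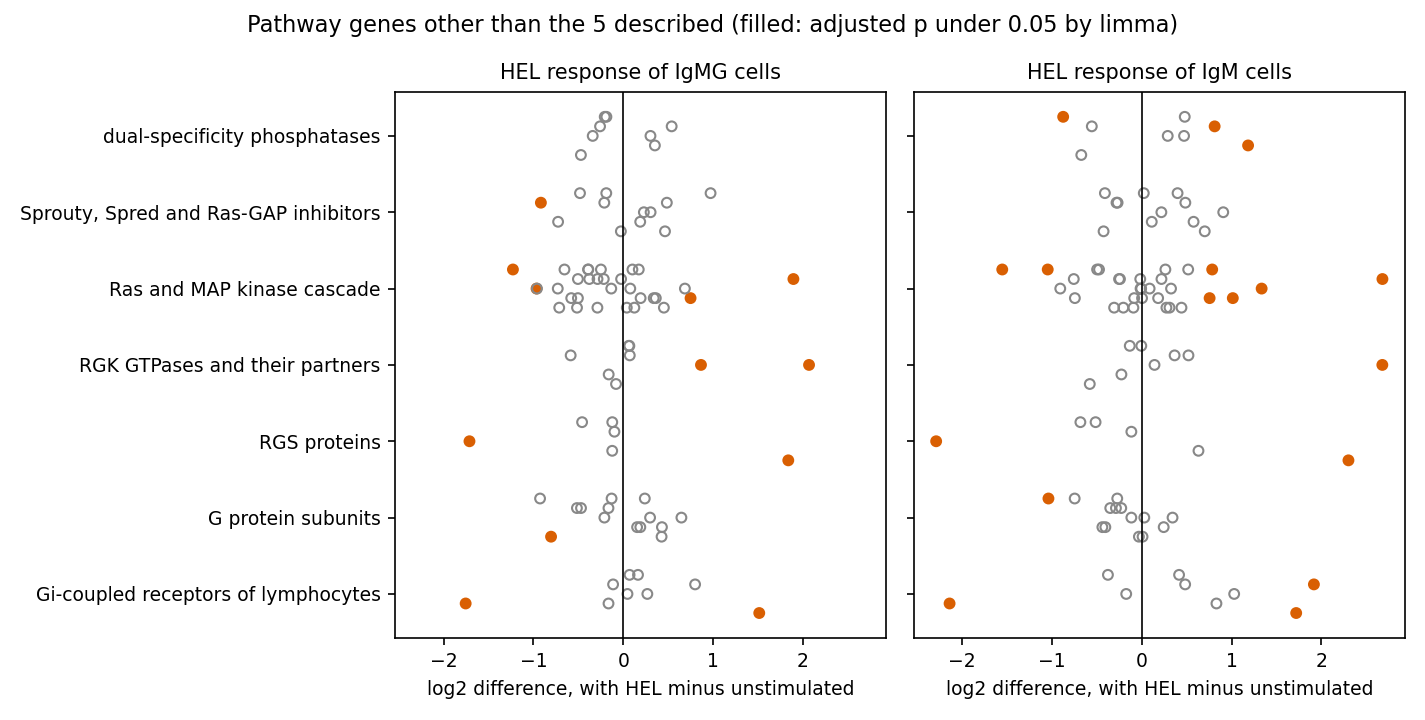
Log2 difference with HEL minus unstimulated (horizontal axes) of the tested genes of 7 pathway lists in IgMG cells (left) and IgM cells (right), without the 5 genes described. Filled points passed an adjusted p of 0.05 by limma, 12 genes in IgMG and 17 in IgM cells, and points are spread vertically within a list only to separate them.

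Between unstimulated IgMG and IgM cells 0 of the 88 pathway genes passed by limma and 11 had an unadjusted p under 0.05 (4.62% of all tested probe sets did), with a median log2 difference of 0.10, against 0.01 over all tested genes. Dusp16 had the lowest p of the other phosphatases, with a log2 difference of 0.66 ± 0.24 and an adjusted p = 0.992 in limma. Between the stimulated cells 0 of the 88 passed by limma, against 0.0178% of all tested genes. Of the 88, 18 had an unadjusted p under 0.05, against 13.9% of all tested probe sets.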

How the data were processed

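Follicular B cell RNA was measured in 8 samples. The authors deposited 1 linear intensity per probe set and array, calculated with MAS5 per the submitters' processing notes; in the values each array has a mean near 150.1 after trimming 2% at each end. Further settings of MAS5 were not given in the sources used here. Columns not used numbered 0. Groups and replicate numbers came from the titles. Whether arrays shared mice is not given, so p-values measure the spread between these pooled samples. The number of arrays limits the precision.

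From 12488 probe sets 66 controls were left out, and the brightest 60% of 12422 by mean log2(signal + 16), 7453, were tested with limma 3.58.1 in R 4.3.3. All 8 arrays entered 1 model with a mean for each group, moderated by eBayes (trend on), with 4 residual and 4.87 prior degrees of freedom. Its two-sided p-values were adjusted by Benjamini-Hochberg, with a threshold of 0.05. Errors beside log2 differences are standard errors of the fit. Symbols came from GEO's platform annotation: 1 symbol for 10833 probe sets, several for 396 and none for 1193. A gene with several probe sets is led by its brightest. Named pathway genes are up to 6 per list with the smallest p past the threshold, or the 1 with the smallest p where 0 passed. The members, lists and alternatives were chosen with earlier results of these data known. The scripts were tested on simulated data. Figures used matplotlib 3.10.9.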

Additional observations from a re-analysis of the deposited data

How the results depend on the processing

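The depth of evidence is 2 arrays per group, and dim probe sets could not be measured. Over 30 member values, 569 alternatives were computed for offset, scaling, filter, trend, arrays in the fit, a replicate block, the Gapdh 5′/3′ covariate, arrays left out and averaging of probe sets. Of these, 526 kept their direction within the replicate spread or their side of the threshold, 33 moved further and 10 changed sign. The cause was not tested. A value with a wide replicate spread could move far and still count as kept. The Dusp1 response of IgMG cells ran from 0.30 to 1.54, and all 19 of its alternatives counted as kept. The sign changes were for Dusp1 (difference of responses from -1.034 to 0.2056 with 1 array left out), for Dusp2 (difference of responses -0.0267 under quantile normalization, and from -0.221 to 0.452 with 1 array left out; at rest from -0.639 to 0.0345 with 1 array left out; with HEL 0.215 under the Gapdh covariate), for Gem (at rest from -0.280 to 0.0109 with 1 array left out) and for Rgs19 103605_g_at (difference of responses from -0.0666 to 0.425 and with HEL from -0.15 to 0.342 with 1 array left out).

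The 12 pathway genes called in IgMG cells became 7 with only the arrays compared and 6 with the Gapdh covariate, and lay between 3 and 11 with 1 array left out. The 17 in IgM cells became 11 with the Gapdh covariate and lay between 10 and 21 with 1 array left out. The counts of 0 at rest, for stimulated cells and for the difference of responses were 0 under every alternative run.

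Over all tested probe sets, the 402 calls in IgMG cells ranged from 58 to 536 and the 1041 in IgM cells from 341 to 1278. The counts ranged from 0 to 13 for the difference of responses, from 0 to 32 at rest and from 0 to 6 for stimulated cells. Same-numbered arrays did not deviate together (correlations between -0.16 and 0.02). With a replicate block 9 pathway genes in IgMG and 18 in IgM cells were called, and 273 and 869 of all probe sets; among member values it changed no call. A crossed pairing, chosen after seeing the data and run only for the comparison of unstimulated cells, gave 0 calls there.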
